A study of Mus musculus with 9 samples.

Results

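Chemokines are small secreted proteins that guide migrating cells, and the genes of these ligands and of their receptors were followed in mouse mammary tumour cells treated with a Wnt inhibitor. The members are all genes whose name on the array begins with Ccl, Cxcl, Cx3cl or Xcl (ligands) or with Ccr, Cxcr, Cx3cr or Xcr (receptors) followed by a digit. This gave 68 probes for 52 gene names, out of 41174 probes for 27575 names on the array, with 35 ligand genes (45 probes) and 17 receptor genes (23 probes). RNA was measured on 9 dual-colour Agilent arrays. Of these, 5 carried RNA of cells given Fzd8-CRD, a soluble piece of the receptor Frizzled 8 that binds Wnt proteins and keeps them from cell surface receptors, and 4 carried RNA of control cells. Both groups came from tumours of MMTV-Wnt-1 and MMTV-Her2 mice, which carry a transgene for Wnt-1 or the receptor Her2 under the mammary tumour virus promoter, which is active in mammary epithelium, and both were sorted as cells without green fluorescent protein directly after isolation. The labels name both tumour models for every array, so the models could not be separated. The sources used here do not give age, strain, dose or duration, what the green fluorescent protein marked, or what the controls received, since the treatment protocol names the inhibitor for all 9 arrays.

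Chemokines are divided by the spacing of their first cysteines into CC, CXC, CX3C and XC families. They bind G protein-coupled receptors on the responding cell, which polarises and moves up the ligand gradient. Inflammatory chemokines are induced in many cell types by cytokines and microbial products, whereas homeostatic ones are made steadily and place lymphocytes and stem cells in tissues. In tumours they are made by cancer cells, stroma and infiltrating leukocytes alike, while most of their receptors are carried by leukocytes. In bulk RNA as measured here, fewer cells of a type and less RNA per cell cannot be told apart.

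All values are log2 ratios of Cy5 (the sample) to Cy3 (a pooled reference RNA), and differences are Fzd8-CRD minus control. All 4 controls shared 1 slide and 1 scan day, and the 5 arrays with the inhibitor were spread over 4 further slides, with scans 367 and 378 days later, so slide, scan day and treatment cannot be told apart. The share of probes well above background in Cy5 was 52.5% to 60.0% on the Fzd8-CRD arrays and 63.8% to 70.8% on the controls. Control replicate 2 stood apart from all other arrays, with correlations across genes of 0.618 to 0.737, against 0.899 to 0.979 among the other controls. Its median over 6 leukocyte marker genes lay 2.57 log2 units above the midpoint of the group means, and that of the other controls between -0.44 and -0.030. Results are therefore given with and without this array. All 9 epithelial marker genes were well above background on all 9 arrays. The labels call the arrays of each group biological replicates, and the p-values measure the spread between these arrays.

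Chemokine ligand genes were lower on the Fzd8-CRD arrays. Of the 30 ligand genes tested, 11 fell and 1 rose at an adjusted p under 0.05, where 7.75% of all 18270 genes fell and 6.60% rose. The fallers were Ccl2, Ccl3, Ccl4, Ccl9, Ccl11, Ccl19, Cxcl1, Cxcl2, Cxcl9, Cxcl10 and Xcl1, and the riser was Cxcl14. Of 12 receptor genes tested, Ccr2 and Ccr7 fell and none rose. Ccr2 was well above background on every control and on 0 Fzd8-CRD arrays, so it was tested only through its control signal. The median difference was -0.84 log2 units over the ligands tested and -0.50 over the receptors tested, beside -0.072 over all genes tested. Without control replicate 2, 13 ligands fell (9.55% of all genes) and 1 rose (7.38% of all genes), the same 2 receptors fell, and the medians were -0.73 and -0.14. Of the 11 ligands that fell with all arrays, 9 also fell without that array. Xcl1 and Cxcl9 lost the call under 14 of 21 alternatives and Ccl19 under 15 of 22. The number of ligands that fell lay between 5 and 7 when any 1 of Fzd8-CRD replicates 1, 2, 4 and 5 or control replicates 3 and 4 was left out. Neither Ccr2 nor Ccr7 passed without Fzd8-CRD replicate 5 or without control replicate 3, and Ccr7 alone passed when any 1 of Fzd8-CRD replicates 1 to 4 or control replicate 4 was left out.

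**Figure D1:**
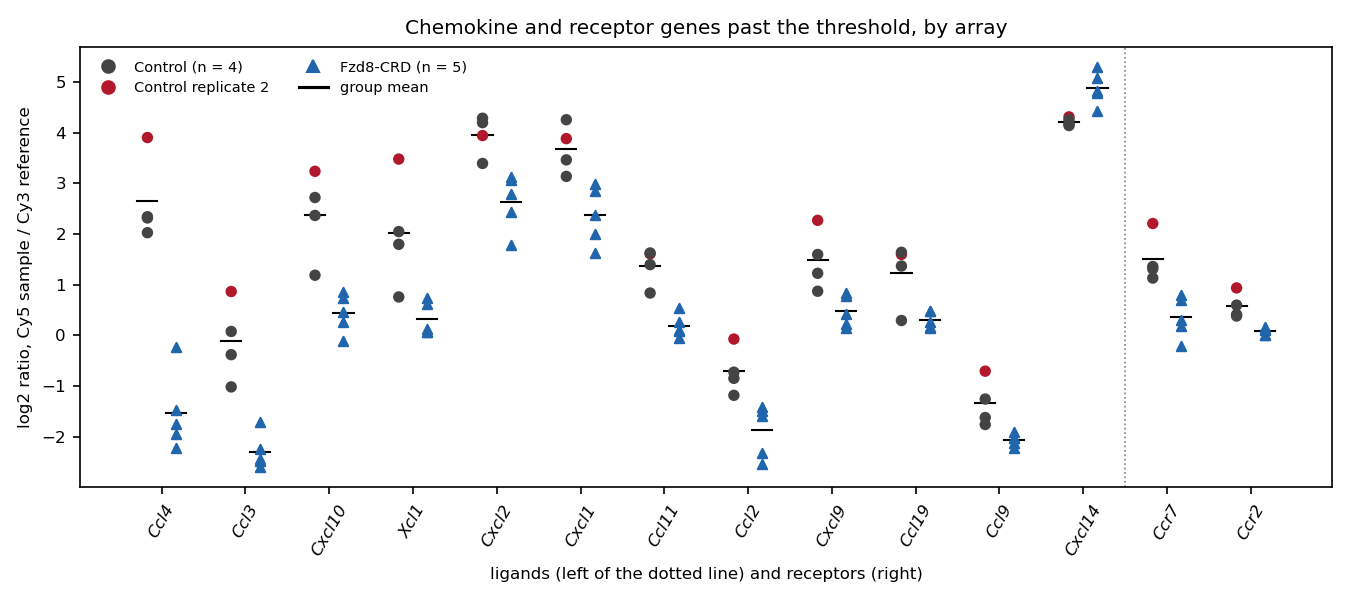
Log2 ratio of Cy5 sample to Cy3 reference (vertical axis) on each array for the 14 members past the threshold, ligands left of the dotted line and receptors right of it, with circles for controls (red for replicate 2), triangles for Fzd8-CRD and bars for group means. The groups are separate for every gene shown except Ccl19, and Cxcl14 is the gene with higher Fzd8-CRD values.

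The groups did not overlap, with Fzd8-CRD lower, for 14 of 30 ligands and 3 of 12 receptors, where 11.7% of all genes tested had this pattern. They did not overlap with Fzd8-CRD higher for 2 ligands (Cxcl12 and Cxcl14), a pattern that 7.90% of all genes had. Without control replicate 2 the numbers with Fzd8-CRD lower were 17 of 30 ligands and 3 of 12 receptors, against 15.6% of all genes, and 3 ligands were higher, against 11.4%. The measured set was limited by signal. Of the members tested, 3 ligands (Ccl12, Ccl20 and Ccl28) and 4 receptors (Ccr2, Ccr3, Ccr1l1 and Cx3cr1) met the filter on dim probes through the controls alone, being well above background on 0 Fzd8-CRD arrays, so the counts that hold them lean to the side of higher controls. Without these 7, 11 of 27 ligands and 1 of 8 receptors fell, and the groups did not overlap, with Fzd8-CRD lower, for 13 ligands and 1 receptor. Of 35 ligands 19 were well above background on all 9 arrays, but of 16 receptors only 3 (Cxcr4, Cxcr7 and Xcr1) were. For 9 members no probe was well above background on the 4 arrays that a test required, namely Ccl1, Ccl22, Cxcl7, Cxcl11, Cxcl13, Ccr1, Ccr4, Ccr8 and Ccr10. The share of arrays well above background was greater in the controls than with Fzd8-CRD for 12 ligands and 11 receptors and smaller for 0, in the same direction as over all probes. Cxcr2, a neutrophil receptor, has no probe under that name here and was not analysed.

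**Figure D2:**
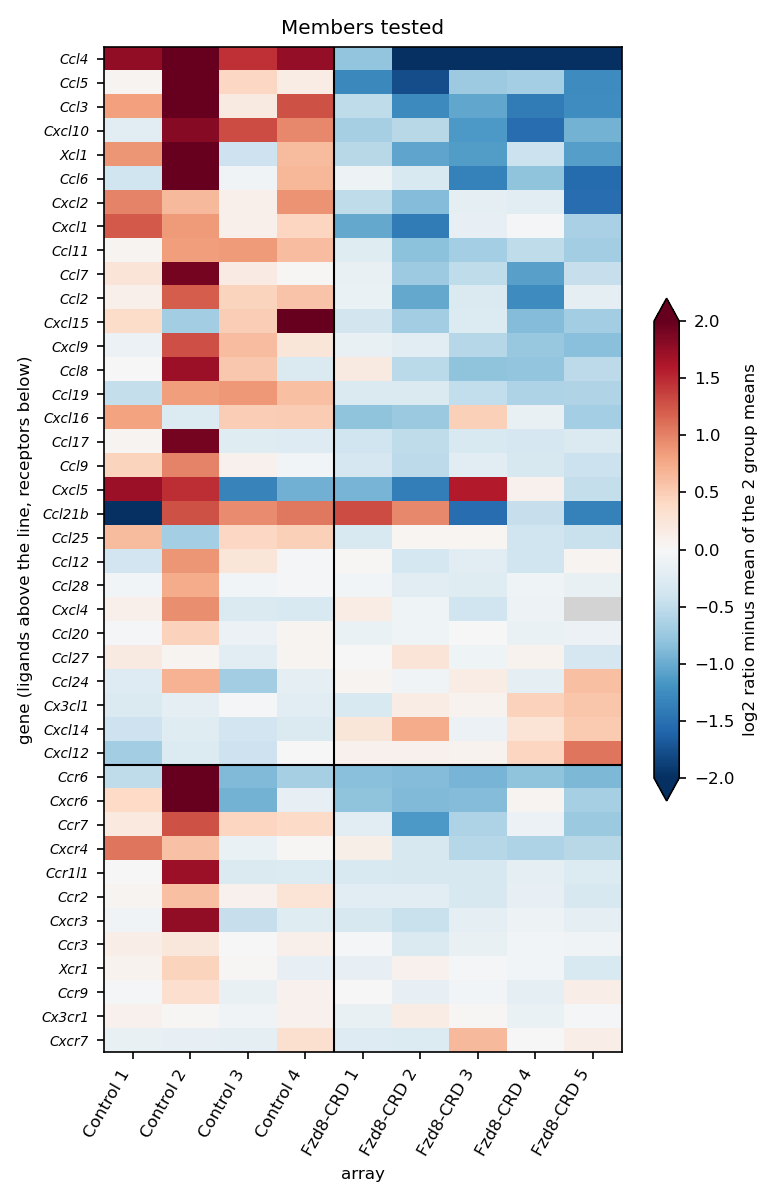
Log2 ratio of each of the 42 members shown (rows, ligands above the line and receptors below it, ordered by difference) on each array (columns), minus the mean of the group means of that gene. Red is higher, blue is lower, colours are capped at 2 log2 units either way and grey is a value left out as an outlier spot, and control replicate 2 holds the highest control value for 19 of 30 ligands and 9 of 12 receptors.

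The largest differences lay in a block of 5 CC ligand genes on chromosome 11, whose probes span 83341989 to 83480804 in the mm8 build. The headers of the Fzd8-CRD arrays name that build, and those of the controls name an earlier build for the same probes. Ccl3, Ccl4 and Ccl9 fell, and Ccl5 also fell without control replicate 2. Ccl3 and Ccl4 encode the macrophage inflammatory proteins 1 alpha and 1 beta, which draw monocytes, T cells and NK cells. Ccl4 stood at 2.34, 3.90, 2.03 and 2.32 on control replicates 1 to 4 and at -0.22, -1.48, -2.22, -1.95 and -1.75 on Fzd8-CRD replicates 1 to 5. The lowest control value was above 2 and every Fzd8-CRD value was below 0, with replicate 1 the highest of the treated arrays. The group means were -1.52 ± 0.78 (SD, n = 5) against 2.65 ± 0.85 (SD, n = 4). They differed by -4.17 (SE 0.47, adjusted p = 0.0028), and by -3.75 (SE 0.40, adjusted p = 0.00263) without control replicate 2. No other member differed by as much.

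Ccl3 stood at -0.38, 0.87, -1.02 and 0.078 on the controls and at -1.71, -2.47, -2.24, -2.60 and -2.45 on the Fzd8-CRD arrays. All 5 treated values lay below the lowest control, that of replicate 3. The difference was -2.18 (SE 0.35, adjusted p = 0.00657), and -1.85 (SE 0.27, adjusted p = 0.00644) without control replicate 2. Ccl3 and Ccl4 neighbour each other on chromosome 11, with probes at 83464051 to 83464110 and 83480745 to 83480804. Both were well above background on all 9 arrays, and both passed the threshold under all 22 alternative settings tried.

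Ccl5 (RANTES) is made by activated T cells and also by other cells. It stood at -0.69, 3.19, -0.33 and -0.60 on the controls and at -2.04, -2.53, -1.48, -1.43 and -2.00 on the Fzd8-CRD arrays. Every treated value was below every control value, but control replicate 2 was 3.73 log2 units above the mean of the other controls. With all arrays the difference of -2.29 (SE 0.74, adjusted p = 0.0663) did not pass, whereas without control replicate 2 the smaller difference of -1.36 (SE 0.25, adjusted p = 0.0115) did. The other Ccl5 probe differed by -2.45 (adjusted p = 0.0503).

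Ccl9 and Ccl6 encode a pair of related chemokines made by myeloid cells. Ccl9 stood at -1.26, -0.71, -1.62 and -1.76 on the controls and -2.03, -2.23, -1.91, -2.03 and -2.13 on the Fzd8-CRD arrays, a difference of -0.73 (SE 0.20, adjusted p = 0.0421) between groups that did not overlap, and -0.52 (SE 0.14, adjusted p = 0.0343) without control replicate 2. Ccl6 differed by -1.64 (SE 0.66, adjusted p = 0.12) and its groups overlapped. On control replicate 2 it stood at 4.71, against 1.21 to 2.28 on the other controls, and without that array the difference was -0.88 (SE 0.37, adjusted p = 0.136).

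Another block on chromosome 11, with probes from 81853343 (Ccl2) to 81932860 (Ccl8), holds the monocyte chemoattractants Ccl2, Ccl7, Ccl8 and Ccl12, ligands of Ccr2 or related receptors, and the eosinophil attractant Ccl11 (eotaxin). Ccl2 and Ccl11 fell with all arrays, and Ccl7 and Ccl11 without control replicate 2. Ccl2 stood at -1.18, -0.072, -0.85 and -0.73 on the controls and -1.42, -2.32, -1.58, -2.54 and -1.49 on the Fzd8-CRD arrays, with no overlap. The difference was -1.16 (SE 0.30, adjusted p = 0.032), and -0.95 (SE 0.28, adjusted p = 0.0525) without control replicate 2, just past the other side of the threshold.

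Ccl11 stood at 0.84, 1.61, 1.63 and 1.40 on the controls and 0.54, -0.048, 0.11, 0.27 and 0.084 on the Fzd8-CRD arrays, where it was well above background on 2 of 5. Its groups did not overlap, and the difference was -1.18 (SE 0.19, adjusted p = 0.00743), or -1.10 (SE 0.20, adjusted p = 0.0114) without control replicate 2. Ccl7 stood at -1.03, 0.63, -1.13 and -1.26 on the controls and -1.43, -2.01, -1.80, -2.38 and -1.74 on the Fzd8-CRD arrays. All treated values were again lower, and the difference was -1.17 (SE 0.38, adjusted p = 0.0666) with all arrays and -0.73 (SE 0.20, adjusted p = 0.0379) without control replicate 2. Its other probe passed with all arrays (-1.36, adjusted p = 0.0377).

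The remaining members of the block did not pass. Ccl8 ranged over -0.28 to 0.70 on the Fzd8-CRD arrays and 0.24 to 2.24 on the controls and differed by -0.99 (SE 0.38, adjusted p = 0.112). The difference of Ccl12 was -0.36 (SE 0.24, adjusted p = 0.32), and -0.12 (SE 0.17, adjusted p = 0.654) without control replicate 2. It stood at -0.86, 0.40, -0.24 and -0.50 on the controls and between -0.87 and -0.41 on the Fzd8-CRD arrays. Every control but 0 Fzd8-CRD arrays had it well above background, which bounds it at least 1.28-fold higher in the control mean, with control replicate 2 included. That bound sets the control mean of Cy5 signal against the mean of, per treated array, the higher of its own signal and the lowest signal well above background. Ccl1 was well above background on 0 arrays.

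Among the CXC ligands that carry the ELR motif, which act mainly on neutrophils, Cxcl1 and Cxcl2 fell with all arrays, and Cxcl15 fell as well without control replicate 2. Cxcl1 (KC) stood at 4.26, 3.88, 3.14 and 3.46 on the controls and 2.01, 1.63, 2.86, 2.99 and 2.38 on the Fzd8-CRD arrays, a difference of -1.31 (SE 0.32, adjusted p = 0.0266). Cxcl2 (MIP-2) stood at 4.28, 3.94, 3.39 and 4.20 on the controls and 2.78, 2.43, 3.12, 3.06 and 1.78 on the Fzd8-CRD arrays, a difference of -1.32 (SE 0.30, adjusted p = 0.0195). In both genes the groups were separate, and control replicate 2 was not the highest control. Without that array the differences were -1.25 (SE 0.36, adjusted p = 0.0461) for Cxcl1 and -1.32 (SE 0.33, adjusted p = 0.0304) for Cxcl2. The sign of both depends on the scaling: with scaling between arrays Cxcl1 differed by 0.14 and Cxcl2 by 0.068, and with the scanner's own log ratio Cxcl2 differed by 0.71, all without passing.

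Cxcl5, also an ELR chemokine, varied more within the groups than between them. It stood at 0.30, 0.062, -2.74 and -2.37 on the controls and -2.34, -2.79, 0.18, -1.32 and -1.89 on the Fzd8-CRD arrays. High and low values occurred in both groups, and the difference was -0.45 (SE 0.78, adjusted p = 0.717). Cxcl15, known from lung epithelium, stood at 1.19, 0.14, 1.32 and 2.99 on the controls and 0.46, 0.14, 0.57, -0.028 and 0.13 on the Fzd8-CRD arrays. Control replicate 2 was its lowest control, and without it the difference of -1.58 (SE 0.38, adjusted p = 0.0267) passed, while that with all arrays (-1.16 (SE 0.46, adjusted p = 0.12)) did not.

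The promoter sequences of Cxcl1, Cxcl2, Cxcl9, Cxcl10 and Ccl3, which fell, and of Cxcl14, which rose, are shown because NF-kappa B and interferon-activated factors are textbook regulators of inflammatory chemokine genes. Each is the 220 bases before the transcription start, 5′ to 3′ on the gene's strand, from RefSeq promoters of build GRCm38.p6. Capitals mark matches to a kappa B consensus, to the core of an interferon-stimulated response element (ISRE, GAAANNGAA) or to a STAT site (GAS, TTCNNNGAA), searched on both strands. Cxcl1 is at chr5:90891025-90891244 (+), Cxcl2 at chr5:90903679-90903898 (+), Cxcl9 at chr5:92328080-92328299 (-), Cxcl10 at chr5:92348890-92349109 (-), Ccl3 at chr11:83649379-83649598 (-) and Cxcl14 at chr13:56296552-56296771 (-).
Cxcl1: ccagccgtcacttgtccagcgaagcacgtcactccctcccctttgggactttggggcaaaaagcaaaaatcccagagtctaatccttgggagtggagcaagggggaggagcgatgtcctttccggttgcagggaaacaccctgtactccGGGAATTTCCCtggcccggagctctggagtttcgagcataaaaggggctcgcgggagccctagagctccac
Cxcl2: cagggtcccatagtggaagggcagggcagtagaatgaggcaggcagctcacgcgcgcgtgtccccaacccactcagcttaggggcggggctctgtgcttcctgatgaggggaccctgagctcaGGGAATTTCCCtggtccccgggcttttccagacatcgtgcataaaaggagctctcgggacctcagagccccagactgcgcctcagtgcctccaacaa
Cxcl10: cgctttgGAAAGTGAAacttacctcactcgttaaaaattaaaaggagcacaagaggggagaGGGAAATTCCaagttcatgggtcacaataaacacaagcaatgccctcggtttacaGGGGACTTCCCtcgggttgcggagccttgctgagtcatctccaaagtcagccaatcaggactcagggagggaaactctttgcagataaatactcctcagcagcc
Cxcl9: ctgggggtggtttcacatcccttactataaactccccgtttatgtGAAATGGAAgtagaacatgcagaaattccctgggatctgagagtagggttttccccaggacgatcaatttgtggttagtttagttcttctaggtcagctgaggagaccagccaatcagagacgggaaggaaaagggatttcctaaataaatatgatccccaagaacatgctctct
Ccl3: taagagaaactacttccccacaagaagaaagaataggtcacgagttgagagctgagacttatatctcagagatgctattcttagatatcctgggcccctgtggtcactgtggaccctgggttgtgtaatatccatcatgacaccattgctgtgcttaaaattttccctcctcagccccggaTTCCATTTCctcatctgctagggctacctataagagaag
Cxcl14: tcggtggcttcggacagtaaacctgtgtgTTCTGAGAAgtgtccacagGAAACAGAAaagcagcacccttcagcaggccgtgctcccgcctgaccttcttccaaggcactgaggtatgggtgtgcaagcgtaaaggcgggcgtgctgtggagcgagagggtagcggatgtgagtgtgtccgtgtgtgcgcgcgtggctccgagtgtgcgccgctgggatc

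Cxcl1 and Cxcl2 carry the same kappa B match, GGGAATTTCC, which begins 71 bases before the start in Cxcl1 and 97 bases before it in Cxcl2, and which also matches on the other strand 1 base further on. Cxcl10 holds 3 kappa B matches, of which those beginning 104 and 103 bases before the start overlap, and an ISRE core beginning 213 bases before it. Cxcl9 holds an ISRE core beginning 175 bases before the start, Ccl3 one on the other strand 39 bases before it, and Cxcl14 an ISRE core and a GAS match. Of the 13 members that fell, 9 have a promoter in this table, and 4 of these 9 (Ccl9, Cxcl1, Cxcl2 and Cxcl10) hold a kappa B match in the 300 bases searched, against 8.46% of all 32851 promoters. An ISRE core was present in 5 of the 9 (Ccl3, Ccl19, Ccr2, Cxcl9 and Cxcl10), against 8.56% of all promoters. The core was chosen after a longer form, which ends in a further A, had been searched. The longer form was present in 2 of the 9 (Ccl19 and Cxcl10), against 3.44%. GAS matches and the TCF/LEF motif of Wnt signalling (CTTTGAT) were present in 0 of the 9, against 8.3% and 3.73%. Xcl1, also among the 9, held no match of any kind and is not shown, while every promoter shown carries a match. Over all members, 10 of the 44 promoters found for 40 genes held a kappa B match. An ISRE core was held by 7 of the 44, its longer form by 3, a GAS match by 4 and the TCF/LEF motif by 2. These matches describe the letters only, and binding was not measured.

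Both interferon-inducible CXC ligands that could be tested fell. Cxcl9 and Cxcl10 are ligands of Cxcr3, a receptor of activated T cells and NK cells, and lie together on chromosome 5, with probes at 93398365 to 93398424 and 93421955 to 93422014. Cxcl10 stood at 1.19, 3.24, 2.72 and 2.37 on the controls and 0.75, 0.85, 0.25, -0.11 and 0.47 on the Fzd8-CRD arrays. The lowest control (replicate 1) was above the highest treated array, and the difference was -1.94 (SE 0.38, adjusted p = 0.0123), or -1.65 (SE 0.35, adjusted p = 0.0181) without control replicate 2. Like Ccl3 and Ccl4, and unlike Cxcl9, Cxcl10 passed the threshold under all 22 alternative settings.

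Cxcl9 stood at 0.87, 2.27, 1.60 and 1.23 on the controls and 0.83, 0.77, 0.42, 0.23 and 0.14 on the Fzd8-CRD arrays, of which 3 had it well above background. The groups were separated by a narrow margin between control replicate 1 and Fzd8-CRD replicate 1. The difference was -1.01 (SE 0.28, adjusted p = 0.0394), and -0.75 (SE 0.22, adjusted p = 0.0468) without control replicate 2. The adjusted p of Cxcl9 lay between 0.00268 and 0.223 over its alternatives. Cxcl11, the third ligand of Cxcr3, was well above background on 0 arrays.

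The homeostatic ligands did not move together, and the single member that rose, Cxcl14, is among them. Cxcl14, made by epithelial cells, had high log2 ratios throughout, at 4.14, 4.31, 4.16 and 4.26 on the controls and 4.79, 5.29, 4.43, 4.83 and 5.08 on the Fzd8-CRD arrays. The controls lay close together, below all treated arrays. The difference was 0.67 (SE 0.17, adjusted p = 0.0307), and 0.70 (SE 0.18, adjusted p = 0.0348) without control replicate 2. It no longer passed, with a difference of the same sign, when any 1 of the arrays other than control replicate 2 and Fzd8-CRD replicate 3 was left out.

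Cxcl12 (SDF-1), the ligand of Cxcr4 made by stromal cells, stood at -1.65, -1.22, -1.36 and -0.94 on the controls and -0.86, -0.85, -0.88, -0.51 and 0.12 on the Fzd8-CRD arrays. All treated values were higher, with replicate 5 above the rest. The difference of 0.70 (SE 0.23, adjusted p = 0.0742) did not pass, but that of the gene's other probe did (0.85, adjusted p = 0.0470).

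Ccl19 and Ccl21 are the ligands of Ccr7 and guide T cells and dendritic cells in lymphoid tissue. Ccl19 stood at 0.29, 1.60, 1.64 and 1.37 on the controls and 0.48, 0.49, 0.27, 0.15 and 0.17 on the Fzd8-CRD arrays. Control replicate 1 lay among the treated arrays, while the other 3 controls lay above them. The difference was -0.91 (SE 0.26, adjusted p = 0.047), and -0.79 (SE 0.28, adjusted p = 0.0829) without control replicate 2; its other probe differed by -1.38 (adjusted p = 0.0207). The Ccl21 probe, named Ccl21b on the array and listed under Ccl21a in RefSeq, may not tell near-identical copies of the gene apart. It stood at 0.20, 3.90, 3.56 and 3.67 on the controls and 3.93, 3.58, 1.09, 2.16 and 1.27 on the Fzd8-CRD arrays. Control replicate 1 was the lowest of all 9 arrays, and the difference was -0.43 (SE 0.87, adjusted p = 0.76).

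Ccl25, a thymus and gut chemokine, stood at 0.24, -1.07, 0.032 and 0.10 on the controls and -0.68, -0.34, -0.34, -0.78 and -0.84 on the Fzd8-CRD arrays. Control replicate 2 was the lowest array of all, and without it the difference of -0.72 (SE 0.15, adjusted p = 0.0171) passed, whereas with it that of -0.42 (SE 0.26, adjusted p = 0.296) did not. In Cy5 alone Ccl25 differed by 0.020 with all arrays and by -0.33 (adjusted p = 0.156) without control replicate 2. In Cy3 alone it differed by 0.32 with all arrays (adjusted p = 5.62e-05). The other kept Ccl25 probe differed by -0.13 in the ratio. Ccl27, a skin chemokine, ranged over 1.67 to 2.26 on the Fzd8-CRD arrays and 1.80 to 2.18 on the controls and differed by -0.037 (SE 0.14, adjusted p = 0.879). Ccl28, an epithelial chemokine, was well above background on every control and on 0 Fzd8-CRD arrays. Its log2 ratio differed by -0.31 (SE 0.18, adjusted p = 0.26). Cxcl13, the B cell attractant, was well above background on 0 arrays.

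Of the other ligands, Xcl1 (lymphotactin), made by T and NK cells, fell. It stood at 2.05, 3.48, 0.76 and 1.80 on the controls and 0.62, 0.12, 0.059, 0.74 and 0.069 on the Fzd8-CRD arrays, of which 2 of 5 were well above background. The margin between the groups was narrow (0.76 on control replicate 3 against 0.74 on Fzd8-CRD replicate 4). The difference was -1.70 (SE 0.45, adjusted p = 0.0363), and -1.21 (SE 0.30, adjusted p = 0.0294) without control replicate 2. The adjusted p lay between 0.00788 and 0.105 over its alternatives. The transmembrane chemokines gave no call: Cxcl16 differed by -0.76 (SE 0.31, adjusted p = 0.122) and Cx3cl1 (fractalkine) by 0.37 (SE 0.18, adjusted p = 0.181). Cxcl16 stood at 4.35, 3.28, 4.04 and 4.05 on the controls and 2.74, 2.80, 4.03, 3.41 and 2.87 on the Fzd8-CRD arrays, and Fzd8-CRD replicate 3 lay among the controls. Its other probe, with a difference of -1.79 (adjusted p = 0.0120), passed.

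Cx3cl1 ranged over 1.70 to 2.56 on the Fzd8-CRD arrays and 1.71 to 1.98 on the controls, and its other probe differed by -0.058. The T cell and regulatory T cell attractant Ccl17 ranged over -0.53 to -0.31 on the Fzd8-CRD arrays and -0.27 to 1.90 on the controls and differed by -0.74 (SE 0.40, adjusted p = 0.235). The platelet factor Cxcl4 (Pf4) and the eosinophil attractant Ccl24 had the lowest ratios of all members, with group means of -3.91 and -3.46 on the Fzd8-CRD arrays, and differed by -0.21 (SE 0.28, adjusted p = 0.616) and 0.22 (SE 0.27, adjusted p = 0.587). Cxcl4 lacks Fzd8-CRD replicate 5, where its spot was marked as an outlier. The difference of Ccl20, the ligand of Ccr6, was -0.18 (SE 0.13, adjusted p = 0.362). Every control but 0 Fzd8-CRD arrays had it well above background.

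Receptor signals were dim, and 2 of 6 CC receptors tested fell, while the other 10 receptors tested did not pass. Of these CC receptors, Ccr2, Ccr3 and Ccr1l1 met the filter on dim probes through the controls alone. Without the 4 receptors of that kind, 1 of 8 receptors fell, where 7.75% of all genes fell. Of these 8, Ccr6, Ccr9, Cxcr3 and Cxcr6 also needed control arrays to meet the filter. Ccr7, the receptor of Ccl19 and Ccl21, stood at 1.13, 2.21, 1.36 and 1.31 on the controls and 0.70, -0.22, 0.31, 0.80 and 0.19 on the Fzd8-CRD arrays. All treated values lay lower, with a difference of -1.15 (SE 0.27, adjusted p = 0.023), or -0.91 (SE 0.22, adjusted p = 0.0283) without control replicate 2.

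Ccr2, the receptor of Ccl2, Ccl7 and Ccl12 on monocytes, stood at 0.38, 0.94, 0.41 and 0.60 on the controls and 0.10, 0.12, 0.0058, 0.17 and 0.010 on the Fzd8-CRD arrays. It was well above background on every control and on 0 Fzd8-CRD arrays. The difference was -0.50 (SE 0.13, adjusted p = 0.0363), and -0.38 (SE 0.10, adjusted p = 0.0329) without control replicate 2. Both receptors lost the call under some alternatives (Ccr7 under 6 and Ccr2 under 10 of 21), and neither changed sign.

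Cxcr4, the receptor of Cxcl12, stood at 2.86, 2.38, 1.67 and 1.81 on the controls and 1.91, 1.48, 1.22, 1.18 and 1.23 on the Fzd8-CRD arrays. The groups overlapped at Fzd8-CRD replicate 1, and the difference was -0.77 (SE 0.26, adjusted p = 0.0763). The other Cxcr4 probe fell by 1.42 in the ratio (adjusted p = 0.00329). For the first probe the sample dye hardly differed and the reference dye did. Its difference was -0.090 in Cy5 alone (adjusted p = 0.852) and 0.43 in Cy3 alone (adjusted p = 0.000159). Cxcr7, now named Ackr3, which also binds Cxcl12, ranged over 1.23 to 2.14 on the Fzd8-CRD arrays and 1.31 to 1.82 on the controls and differed by 0.10 (SE 0.21, adjusted p = 0.773).

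Ccr6, the receptor of Ccl20 on B cells and T helper 17 cells, stood at 0.33, 6.39, -0.042 and 0.17 on the controls and between -0.10 and 0.030 on the Fzd8-CRD arrays. No other array rose above 0.33, and the difference of -1.74 (SE 1.18, adjusted p = 0.327) was -0.18 (SE 0.11, adjusted p = 0.264) without control replicate 2. Cxcr6, the Cxcl16 receptor of activated T and NK cells, stood at 0.93, 3.76, -0.41 and 0.37 on the controls and -0.26, -0.34, -0.33, 0.60 and -0.13 on the Fzd8-CRD arrays, and differed by -1.26 (SE 0.71, adjusted p = 0.25). Cxcr3, the receptor of Cxcl9 and Cxcl10, stood at -0.017, 1.82, -0.42 and -0.20 on the controls and -0.27, -0.40, -0.15, -0.053 and -0.14 on the Fzd8-CRD arrays. Here too control replicate 2 was the only array well away from the rest, and the difference of -0.50 (SE 0.40, adjusted p = 0.407) was 0.011 (SE 0.13, adjusted p = 0.964) without it.

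Cx3cr1, the fractalkine receptor of monocytes and NK cells, Ccr3, the eotaxin receptor, and Ccr1l1, a relative of Ccr1, were well above background on every control and on 0 Fzd8-CRD arrays. Ccr3 was at least 1.08-fold higher in the control mean of Cy5 signal. Their log2 ratios differed by -0.063 (SE 0.11, adjusted p = 0.709), -0.23 (SE 0.10, adjusted p = 0.156) and -0.57 (SE 0.37, adjusted p = 0.312). The Xcl1 receptor Xcr1, a marker of cross-presenting dendritic cells, differed by -0.18 (SE 0.14, adjusted p = 0.399), and the Ccl25 receptor Ccr9 by -0.12 (SE 0.13, adjusted p = 0.536). Ccr1 and Ccr10 were well above background on 0 arrays, Ccr8 was on 1 control, and Ccr4 on 3 controls.

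**Figure D3:**
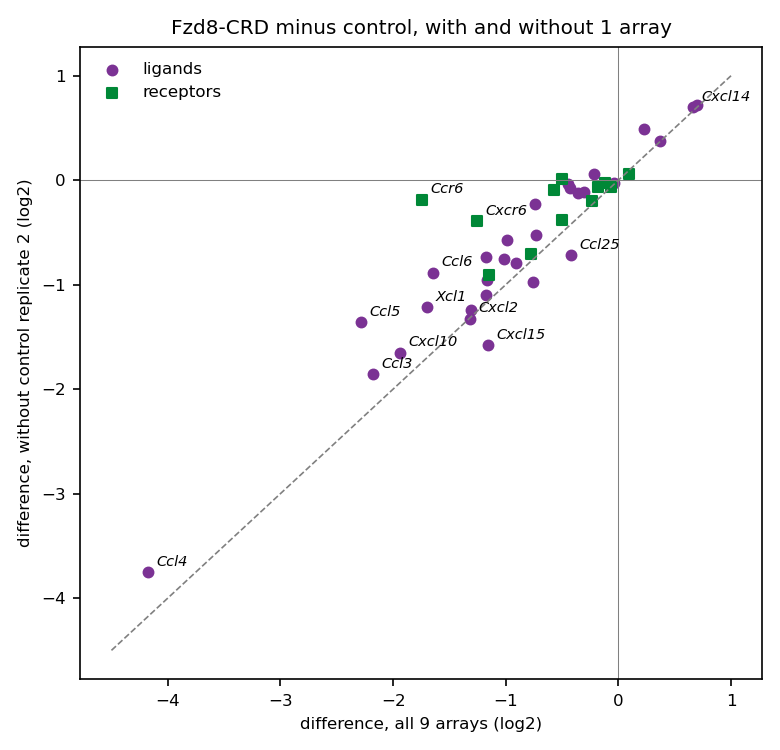
Difference Fzd8-CRD minus control (log2) of the 42 members shown, with all 9 arrays (horizontal axis) and without control replicate 2 (vertical axis), ligands as circles and receptors as squares, with a dashed line of equality. Ccl4, Ccl3 and Cxcl10 stay near the line, Ccr6 and Cxcr6 lie far above it, with differences nearer to 0 without that array, and Cxcl15 and Ccl25 lie below it.

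For Ccl4, Ccl3 and Cxcl10 the sample dye differed far more than the reference dye. Each dye was also normalized and tested alone. In Cy5, Ccl4 stood at 11.86 to 13.69 (log2 signal) on the controls and 7.76 to 9.83 on the Fzd8-CRD arrays, and in Cy3 at 10.12 to 10.20 and 10.25 to 10.37. Its Cy5 difference was -4.09 (adjusted p = 0.00149) and its Cy3 difference 0.17 (adjusted p = 0.00313). For Ccl3 the differences were -1.80 in Cy5 and 0.35 in Cy3 (adjusted p = 3.32e-05), and for Cxcl10 -1.90 and -0.093 (adjusted p = 0.136). Over the 13 members that fell in the ratio, Cy5 alone differed below 0 for 13 and passed for 6 (Ccl2, Ccl3, Ccl4, Ccl9, Cxcl1 and Cxcl10). The ratio that picked these 13 holds the same Cy5 signal, so their Cy5 counts are no separate support. Over all 42 members tested 8 were lower in Cy5, where 8.80% of all genes were. Of the 13 that fell in the ratio, Cy3 differed for 4, with Ccl3, Ccl4 and Ccl19 higher and Ccl9 lower, where 59.0% of all genes differed in Cy3.

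Among the 7 that did not pass in Cy5, the difference was -0.56 for Ccl11 (adjusted p = 0.0516) and -1.13 for Xcl1 (adjusted p = 0.0882). For the rest it was -0.36 for Ccl19, -0.49 for Cxcl2, -0.43 for Cxcl9, -0.29 for Ccr2 and -0.57 for Ccr7 (adjusted p between 0.156 and 0.275). The groups of Cxcl2, separate in the ratio, overlapped in Cy5, at 9.08 to 10.09 on the controls and 8.43 to 9.95 on the Fzd8-CRD arrays. Ccl7 and Ccr9, which did not pass in the ratio, were lower in Cy5, by -1.19 (adjusted p = 0.0447) and -0.60 (adjusted p = 0.00497), and Ccr9 was lower in Cy3 too, by -0.39. Cxcl14, Cxcl12, Cx3cl1 and Cxcr7 were higher in Cy5 alone, by 1.21, 0.99, 0.62 and 0.81 (adjusted p between 0.0206 and 0.0409), where 10.1% of all genes were higher. Cxcr7 was also higher in Cy3, by 0.55. The reference dye differed between the groups for 13 of 42 members, though by no more than 0.55 log2 units in any member. Of the 42, 6 were lower in Cy3 and 7 higher, where 32.0% and 27.0% of all genes were. The sources used here do not say whether 1 reference RNA served both groups.

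**Figure D4:**
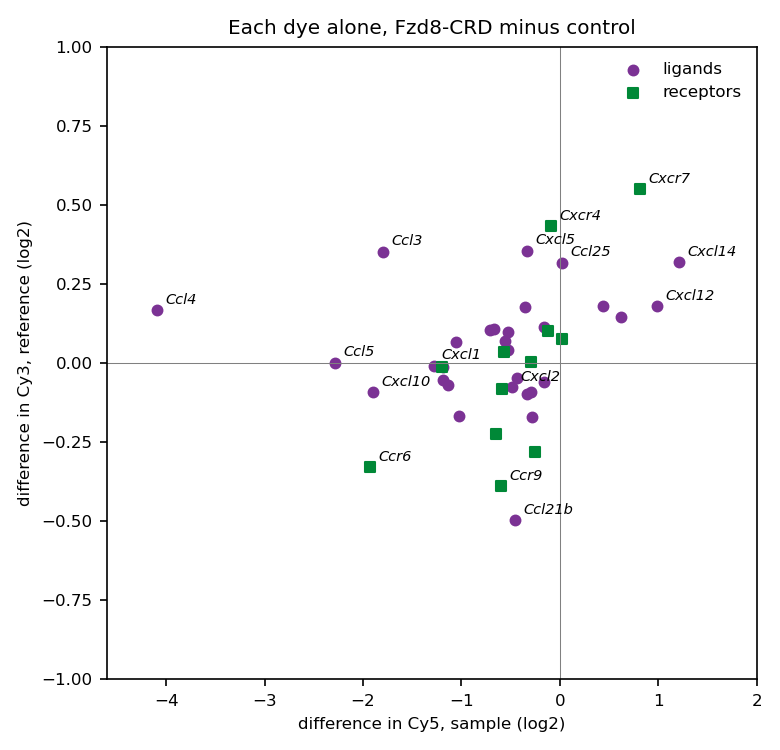
Difference Fzd8-CRD minus control (log2) of the 42 members shown in Cy5 alone (horizontal axis, the sample) and in Cy3 alone (vertical axis, the reference), ligands as circles and receptors as squares, with each dye on its own scale. Cy5 differences reach from -4.09 (Ccl4) to 1.21 (Cxcl14), while Cy3 differences lie between -0.50 and 0.55.

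Other genes of chemokine signalling were taken from 4 lists, and their counts stand beside 7.75% of all genes that fell and 6.60% that rose. Of 10 tested genes that encode chemokine-like ligands, atypical receptors and related chemoattractant receptors, 3 fell and 0 rose. Ackr1, an atypical receptor of small vein endothelium and red cells that binds many inflammatory chemokines, fell by 2.09 (SE 0.25, adjusted p = 0.00307). Ccrl2, which presents the chemoattractant chemerin, fell by 1.56 (SE 0.35, adjusted p = 0.019), and Rarres2, the gene of chemerin itself, fell by 1.53 (SE 0.32, adjusted p = 0.0162). Without control replicate 2, Ackr4, a scavenger of Ccl19, Ccl21 and Ccl25, fell too (-0.75, adjusted p = 0.046). The median of the list was -0.73.

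Among 18 tested cytokines and transcription factors that induce chemokine genes, 5 fell and 1 rose, where 7.75% of all genes fell and 6.60% rose. The largest fall was that of Ifnb1, encoding interferon beta (-3.01 (SE 0.16, adjusted p = 0.000117)), measured above background on only 1 of the 5 treated arrays. It was followed by those of Ifng, encoding interferon gamma (-2.96 (SE 0.64, adjusted p = 0.0176)), and of the cytokine gene Il6 (-2.46 (SE 0.31, adjusted p = 0.00352)). Il1a (-0.75 (SE 0.20, adjusted p = 0.0361)), well above background on 0 Fzd8-CRD arrays, and Nfkbiz, an NF-kappa B cofactor (-0.61 (SE 0.18, adjusted p = 0.05), under the threshold before rounding), fell with all arrays but did not pass without control replicate 2. Cebpb, a transcription factor of the acute phase response, rose (0.84 (SE 0.20, adjusted p = 0.0243)). The differences of Tnf (-0.68 (SE 0.40, adjusted p = 0.266)), Il1b (-1.68 (SE 0.79, adjusted p = 0.172)), Nfkb1 (-0.14 (SE 0.34, adjusted p = 0.801)) and Rela (-0.050 (SE 0.23, adjusted p = 0.899)) did not pass.

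Of 43 tested genes of G protein signalling downstream of the receptors, 4 fell and 2 rose, with a median of -0.086 close to that of all genes. The smallest p-values belonged to Rasgrp2, an activator of the GTPase Rap1 (-1.57 (SE 0.26, adjusted p = 0.00782)), Elmo1, an adaptor for Rac activation that rose (0.67 (SE 0.12, adjusted p = 0.00992)), and the GTPase gene Rhoa (-1.05 (SE 0.20, adjusted p = 0.011)). In Cy5 alone Rasgrp2 (-1.36, adjusted p = 0.00565) and Elmo1 (0.76, adjusted p = 0.0124) passed as well. Rhoa did not (-0.29, adjusted p = 0.379), and its Cy3 difference was 0.67. The 7 tested proteases that cut or shed chemokines held 0 calls in limma with all arrays. At an unadjusted p under 0.05 there was 1, Mmp2 (0.95 (SE 0.37, adjusted p = 0.107)), a gelatinase that cuts several chemokines. Without control replicate 2, Mmp2 (1.30, adjusted p = 0.0205) and Mmp9 (0.71, adjusted p = 0.0211) rose in the ratio. No Mmp9 probe was well above background on more than 2 of 5 Fzd8-CRD arrays, against 4 of 4 controls. With all arrays Mmp9 differed by 0.11 in the ratio (adjusted p = 0.892) and by -0.45 in Cy5 alone (adjusted p = 0.336). Over all 4 lists 12 of 78 genes tested fell and 3 rose, where 7.75% of all genes fell and 6.60% rose.

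Markers of cell types were read beside the chemokine genes. Of 6 leukocyte markers 0 fell by limma with all arrays or without control replicate 2 (1, Cd53, at an unadjusted p under 0.05 with all arrays). Their median difference was -0.81 with control replicate 2 and -0.061 without it. Laptm5, a lysosomal protein gene of leukocytes, rose without that array (0.87, adjusted p = 0.00828). Ptprc, the gene of the pan-leukocyte protein CD45, differed by -0.81 (SE 0.62, adjusted p = 0.382) with all arrays and by -0.049 without that array. The macrophage list held 1 gene that fell of 10 (Mrc1, -0.70 (SE 0.19, adjusted p = 0.0377)) and 0 without control replicate 2, with medians of -0.65 and -0.50. Of 8 T cell genes 0 fell and Cd8b1 rose (1.00 (SE 0.18, adjusted p = 0.00964)), and without control replicate 2 Cd3e fell (-0.44, adjusted p = 0.0184). Neutrophil (6 tested), NK cell (3 tested), dendritic cell (4 tested) and B cell genes (5 tested) gave 0 calls by limma in either fit, and of these 18 genes 5 (Camp, Flt3, Gzma, Gzmb and Nkg7) were lower at an unadjusted p under 0.05 with all arrays. The NK cell genes had the lowest leukocyte median without control replicate 2 (-1.00, over 3 genes), and 4 of 7 (Ncr1, Klrb1c, Klrk1 and Prf1) were well above background on 0 Fzd8-CRD arrays. The same held for 3 of 6 dendritic cell genes (Flt3, Clec9a and Cd209a), 2 of 6 B cell genes (Cd79a and Pax5) and 1 of 9 T cell genes (Cd247).

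Endothelial genes differed between the groups throughout, and 8 of 8 fell with all arrays and without control replicate 2, with a median of -2.18 in both fits. Ptprb (-3.11 (SE 0.42, adjusted p = 0.0044)) and Emcn (-3.04 (SE 0.51, adjusted p = 0.00786)) had the largest falls. The medians of the endothelial list lay between -1.88 and -0.15 on the Fzd8-CRD arrays and between 0.59 and 1.36 on the controls, without overlap, as did those of the ligand list (-0.52 to -0.26 and 0.060 to 0.90) and of the erythrocyte and platelet list (-1.71 to -0.29 and 0.11 to 3.73). Of 8 fibroblast genes Fap fell (-0.90 (SE 0.20, adjusted p = 0.0176)), and of 9 epithelial genes 0 fell and Krt5 rose in the ratio (0.80 (SE 0.13, adjusted p = 0.00714)). For Krt5 the reference dye differed and the sample dye hardly did, by -0.80 in Cy3 and 0.065 in Cy5 (adjusted p = 0.845 in Cy5). Without control replicate 2, the fibroblast gene Pdgfra (1.20, adjusted p = 0.0153) and the epithelial gene Krt14 (0.92, adjusted p = 0.0485) rose too. Of 5 erythrocyte and platelet genes, Hbb-bt, Hba-a1 and Alas2 fell (-6.47, -4.31 and -3.00). The part of any of these cell types in the chemokine differences was not tested.

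**Figure D5:**
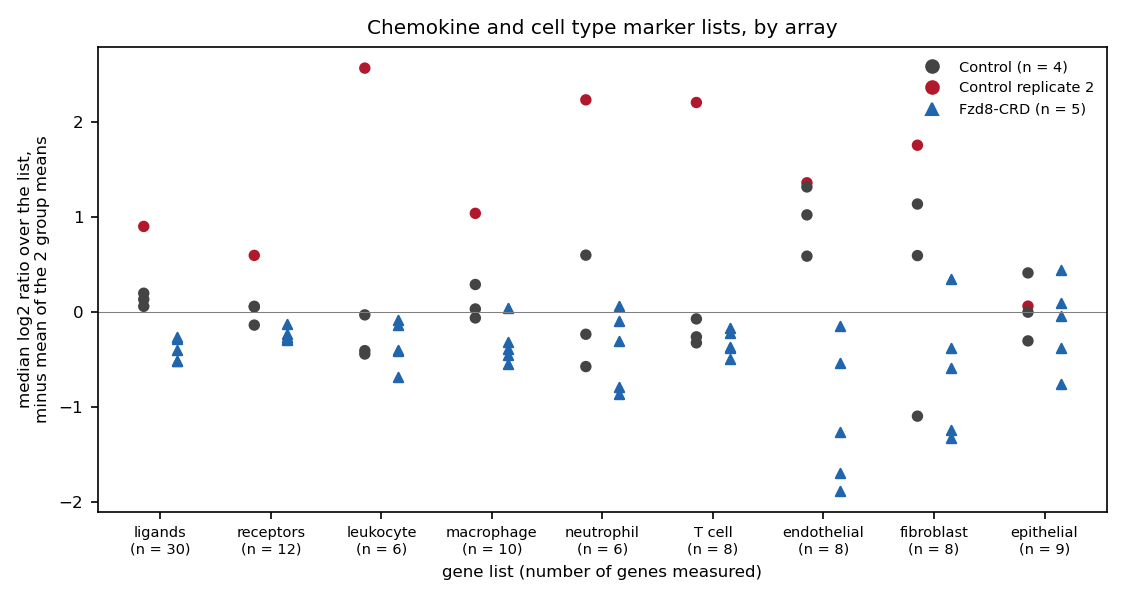
Median log2 ratio over each gene list on each array (vertical axis, minus the mean of the group means of each gene), for the chemokine ligands, the receptors and cell type marker lists, with circles for controls (red for replicate 2) and triangles for Fzd8-CRD. Of the lists plotted, the groups are separate for ligands and endothelial genes, overlap narrowly for receptors (lowest control -0.14, highest Fzd8-CRD -0.13) and overlap for the leukocyte list, where control replicate 2 stands at 2.57.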

How the data were processed

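Expression was measured on 9 dual-colour arrays, 5 Fzd8-CRD and 4 control, grouped by the treatment label; replicate numbers follow accession order. Per the file headers, the spot intensity values (foreground means, background medians) and the software's own log10 ratio come from version 9.5.3.1 of Agilent Feature Extraction. The series table deposited by the authors holds a linear ratio, whose log2 correlated at 1 with that log ratio. The labels call the Cy3 reference a universal human RNA, a universal mouse RNA and a pool of strains, and ratios are therefore not read as levels.

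Background was corrected by normexp (offset 50) and ratios normalized within arrays by loess in limma 3.58.1 (R 4.3.3, version 1.17.8 of data.table), with control spots at weight 0. Outlier spots (1229) were left out, spots of a probe averaged, and of 41174 probes the 26835 kept whose Cy5 was well above background on 4 or more arrays. A gene is its brightest kept probe. The offset understates differences of dim genes. All 18270 genes were fitted with lmFit and eBayes, with Benjamini-Hochberg adjustment over all of them and a threshold of 0.05; the script was tested on simulated data. Single dyes were quantile normalized and tested separately. Bounds written "at least N-fold" use Cy5 after loess and Aquantile, hold no spread between arrays, are open to dye bias and are given only where the folds of the quantile normalized Cy5 and of the ratio are no smaller. All 52 members matched a RefSeq symbol; 1 receptor gene is not reported here and is left out of every count, median and plot of members, though it stayed in the fit over all genes. Array number limits precision.

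The members and lists were chosen with earlier results of these data known. Members named are those past the threshold in either fit, those well above background in 1 group, and a set named whatever their values; Ccl6, Ccl17, Ccl21b, Ccl24, Ccl27, Cxcl4, Ccr6, Ccr9, Cxcr6 and Xcr1 were added after their values were seen. From each other list up to 3 genes with the smallest p were named, and others (Ackr4, Il1a, Nfkbiz, Cebpb, Tnf, Il1b, Nfkb1, Rela and the marker genes) after their values were seen. Alternatives were the offset, background correction, scanner log ratio, series table, centring, scaling, Cy5 alone, probe filters and choice, array weights, slide as a random block and each array left out; the Cy3 comparison was added after seeing the data. The shorter ISRE core was likewise taken up after the longer form had been searched and its matches seen, and counts of both are given.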

Additional observations from a re-analysis of the deposited data

Results flagged for a closer look

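For 12 of 84 groups of values (42 members, each in the controls and with Fzd8-CRD), 1 array lay far from the others of its group by Dixon's test; chance flags about 1 in 20 groups. Control replicate 2 accounts for 8 of the 12. It was above the other controls for Ccr6 (6.39 against -0.042 to 0.33), Ccl4 (3.90 against 2.03 to 2.34), Ccl5 (3.19 against -0.69 to -0.33), Ccr1l1 (1.99 against -0.0059 to 0.29), Ccl17 (1.90 against -0.27 to 0.039), Ccl28 (0.97 against 0.17 to 0.20) and Ccl7 (0.63 against -1.26 to -1.03), and below them for Ccl25 (-1.07 against 0.032 to 0.24). The others were Ccl21b in control replicate 1 (0.20 against 3.56 to 3.90), Cxcr7 in control replicate 4 (1.82 against 1.31 to 1.35), Ccl8 in Fzd8-CRD replicate 1 (0.70 against -0.28 to 0.0035) and Cxcr6 in Fzd8-CRD replicate 4 (0.60 against -0.34 to -0.13).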

How the results depend on the processing

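Ccl3, Ccl4 and Cxcl10 kept their direction and call under all 22 alternatives. The counts and medians moved as follows, and the cause was not tested unless stated. With median centring 4 ligands and 1 receptor fell, 0 ligands rose and 1 gene of the 4 signalling lists rose (613 of 18270 genes changed, against 2621). With scaling between arrays 6 ligands, 0 receptors and 6 signalling genes fell and 0 ligands rose. With Cy5 alone 7 ligands and 1 receptor fell, 3 ligands, 1 receptor and 8 signalling genes rose, and the ligand median was -0.51. With the scanner's log ratio and with the series table the medians were -1.32 (ligands) and -1.24 (receptors). The receptor median was -0.72 with an offset of 16, -0.21 without a filter on dim probes, -0.18 over probes above background on all arrays, where only 3 receptors were left and 0 fell, and -0.071 with array weights. The mean of a gene's probes gave 2 ligands and 1 signalling gene that rose, array weights 3 ligands and 8 signalling genes that rose (6926 of all genes changed), and slide as a random block 17 ligands that fell, 2 ligands and 6 signalling genes that rose (5502 of all genes changed, consensus correlation -0.17); no slide carries both groups, so the block removes no slide difference between them. Other scalings turned single genes round. The scanner's log ratio and the series table gave Ccl21b 1.30, Ccl24 -1.49, Ccl27 0.39, Cxcl2 0.71 and Xcr1 0.013, and the series table Cx3cr1 0.77. Scaling between arrays gave Ccl21b 0.48, Ccl24 -1.34, Ccl27 0.84, Cxcl1 0.14, Cxcl16 0.88, Cxcl2 0.068 and Cxcr4 0.020. No background correction gave Ccl24 -0.18 and Ccl27 0.14, and median centring Ccl27 0.061 and Ccr9 0.054. Cy5 alone gave Ccl24 -0.34, Ccl25 0.020, Ccl27 0.44 and Xcr1 0.026, and array weights Ccl27 0.12, Cxcl4 0.21, Cxcl5 0.65, Ccr9 0.033 and Cxcr3 0.094. Leaving out 1 array at a time gave 5 to 13 ligands and 0 to 2 receptors that fell, 0 to 1 ligands that rose, 7 to 12 signalling genes that fell and 1 to 7 that rose, medians of -1.14 to -0.73 (ligands) and -0.65 to -0.14 (receptors), and differences of -0.11 to 0.042 for Ccl27, -0.35 to 0.058 for Cxcl4, -0.97 to 0.047 for Cxcl5, -0.74 to 0.011 for Cxcr3 and -0.052 to 0.22 for Cxcr7. No paired analysis was possible because the labels give no replicate numbers and no slide holds both groups.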
